A study of Mus musculus with 2 samples.

Results

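Fatty acids and cholesterol are built from the same cytosolic acetyl-CoA, and the genes of both routes were read here in newborn mouse pancreas carrying a mutant form of Glis3, the gene of a zinc finger transcription factor related to the Krüppel family. The set holds 36 genes, listed by symbol: 13 of fatty acid synthesis, desaturation and elongation, 17 of sterol synthesis, 5 of their control by the SREBP factors, and the sterol carrier gene Stard4. All 36 have a probe, out of 16821 genes with a named probe, and all 36 were detected, where 16541 genes were. They are read by 56 probes, each well above background in both genotypes on both arrays and none saturated. A gene's value is that of its brightest probe, and 16 of the 36 genes have a further probe.

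The mutant was Glis3zf/zf, called Glis3KO in part of the labels, and it was set against wild type (WT). Pancreas was taken at postnatal day 3 and each genotype's RNA is a pool of 2 pups, so each genotype is 1 sample. The same pair of pools was hybridised 2 times to Agilent whole mouse oligonucleotide arrays, once with the mutant in the red dye Cy5 and wild type in the green dye Cy3, and once with the dyes exchanged. The arrays therefore repeat the measurement and not the animals, no value has a check across pups, and no test between genotypes can be made. The strain, the sex, and the effect of the zf allele on the Glis3 transcript are not given in the sources used here.

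Each ratio is the log2 of Glis3zf/zf over WT, normalised on each array and given for both dye orientations, and a mean is that of the 2 arrays. A normalised signal is a channel's brightness in intensity units after background correction and loess, and it includes an added offset of 50. The technical SD of a mean ratio, from the gap between the arrays, was 0.079 log2 over all detected genes not past the 2-fold rule, and 0.066 to 0.104 by class of brightness. Genes were called by 2 rules of size, neither of which is a test. The 2-fold rule asks for a mean change of 2-fold or more, and for 1.5-fold or more on each array with the same sign. The small-shift rule asks for at least 0.2 log2, which is 1.15-fold, with the same sign on both arrays.

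As background, cytosolic acetyl-CoA comes from citrate, and acetyl-CoA carboxylase and fatty acid synthase turn it into palmitate, which elongases and desaturases then extend and unsaturate. The mevalonate route joins acetyl-CoA units into isoprenoid diphosphates, which are condensed to squalene, closed into lanosterol and trimmed to cholesterol. Both routes are controlled by the SREBP transcription factors, which leave the endoplasmic reticulum with their escort Scap when sterol is low and are held there by Insig proteins when it is high. SREBP-1c and ChREBP, encoded by Mlxipl, also carry insulin and glucose signals to fatty acid synthesis. In the pancreas, acinar cells need membrane lipid for their large endoplasmic reticulum and zymogen granules, and beta cells need cholesterol in granule and plasma membranes for insulin release.

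No gene of the set passed the 2-fold rule in either direction, which 0.23% of detected genes passed as higher and 0.151% as lower. By the small-shift rule 6 genes were lower in the mutant pool, namely Idi1, Sc4mol (now Msmo1), Hmgcs1, Fdps, Acly and Elovl5, and 1, Scd2, was higher. The 6 are 16.7% of the set, where the rule called 4.24% of detected genes lower, and the 1 is 2.78% of it, where 2.69% were called higher. Among the 8316 genes at least as bright as the dimmest of these 7, the shares were 5.99% lower and 3.55% higher, and 24 of the 36 genes are that bright. With the median over a gene's probes 3 genes were lower (8.33%), where 577 of all detected genes were (3.49%). With a threshold of 0.3 log2 it was 2 (5.56%), where 311 of all detected genes were (1.88%). The median of the 36 mean ratios was -0.08, with a range of -0.46 to 0.48, where the median of all detected genes was 0.00. Below 0 on both arrays were 15 of the 36 (41.7%), against 30.5% of detected genes, and above 0 on both were 7 (19.4%), against 32.5%. The other 14 (38.9%) had opposite signs on the arrays, as did 37.1% of detected genes. In these pools of whole tissue, fewer cells of a type and less RNA per cell cannot be told apart.

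**Figure D1:**
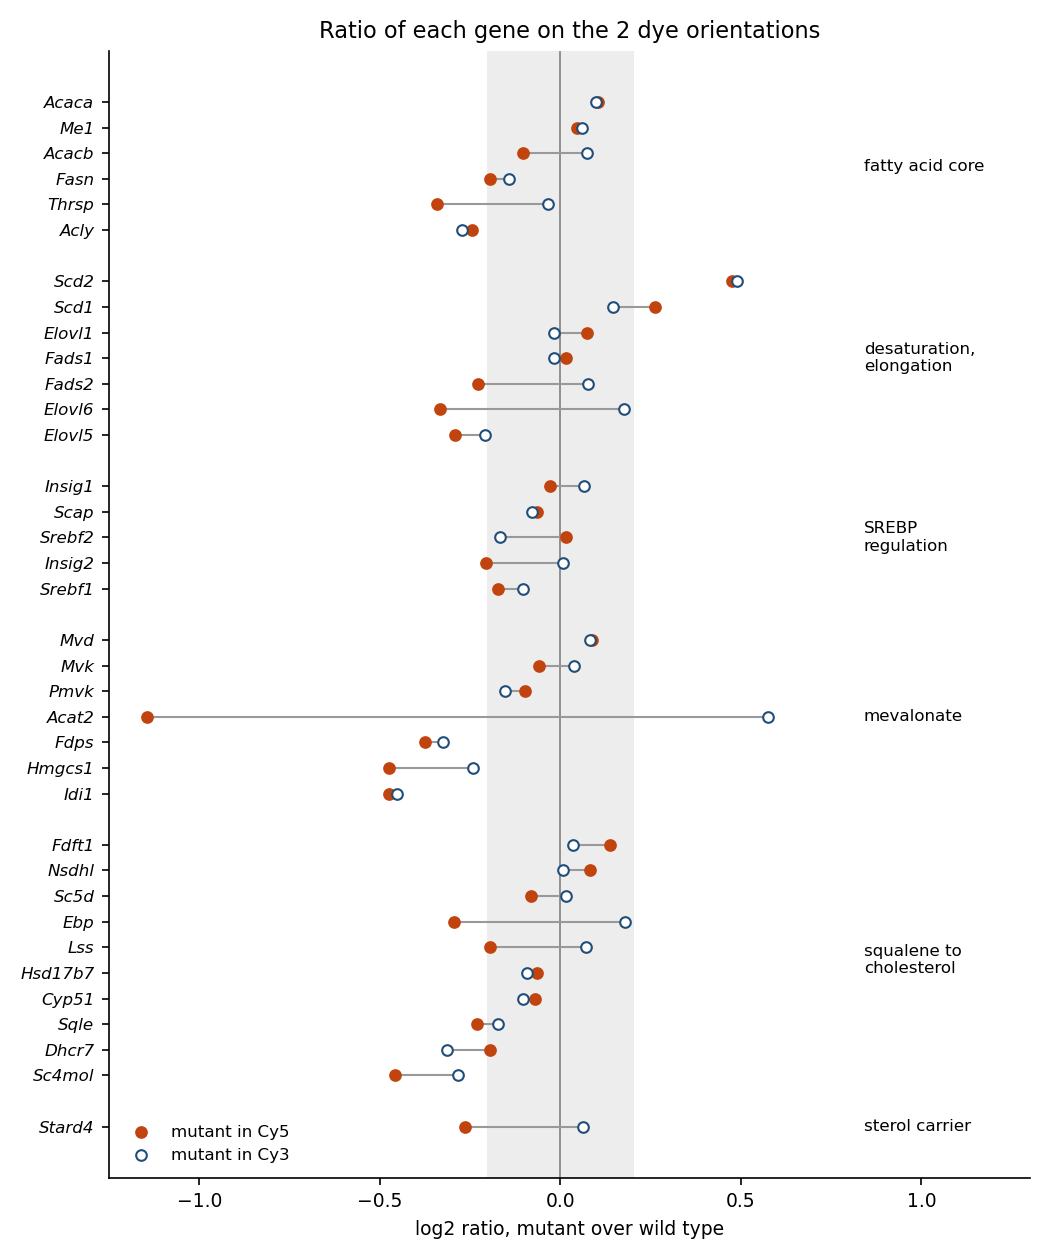
Log2 ratio of mutant over wild type for each of the 36 genes, ordered by role and by mean, with the mutant in Cy5 as a filled point and in Cy3 as an open point. The grey band marks 0.2 log2 on each side of 0; the pairs of Idi1, Sc4mol, Hmgcs1, Fdps, Acly and Elovl5 lie left of it, the pair of Scd2 lies right of it, and the 2 points of Acat2 lie on opposite sides.

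Markers of several cell types differed between the pools. Of 8 islet hormone genes, 7 passed the 2-fold rule as lower, with a median of -2.06. Ins1 and Ins2 were lower than the other 6, but spots of their probes were saturated, so no ratio is given for them. The 6 that were never saturated ran from Ppy at -2.15 to Iapp at -0.51, and their summed signal was 62201 in Glis3zf/zf and 123319 in WT with the mutant in Cy5, and 53959 in Glis3zf/zf and 110649 in WT with the mutant in Cy3. Of 11 measured skeletal muscle genes, 8 passed the 2-fold rule as higher, with a median of 3.19 (Myl1 4.46, Myog 0.01). Their summed signal was 26059 in Glis3zf/zf and 3813 in WT on the first of these arrays, and 23067 in Glis3zf/zf and 3797 in WT on the other. The 7 acinar genes not saturated had a median of -0.22 (Ctrl -1.11, Gp2 1.93), and 9 more were saturated and were left out. Of the 7, 4 were below 0 and 3 above 0 on both arrays. Their sums were 71039 in Glis3zf/zf and 72738 in WT, and 64915 in Glis3zf/zf and 64872 in WT. Gp2 alone had 20969 in Glis3zf/zf and 5471 in WT, and 18034 in Glis3zf/zf and 4754 in WT. Its rise offsets falls in other acinar genes within these sums, which therefore do not show unchanged acinar signal. These shifts run beside every value below, and their part in the results was not tested. The single Glis3 probe had ratios of -0.02 and 0.01, and since the sources used here do not place it against the mutated stretch, it does not check the labels.

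Markers of 3 cell types rich in lipid synthesis were read as well. Of 14 adipocyte genes 1 passed the small-shift rule, Car3 at 0.89, and the median was 0.05 (lowest Cidea -0.20), with sums of 12822 in Glis3zf/zf and 13145 in WT with the mutant in Cy5, and of 11641 in Glis3zf/zf and 10262 in WT with the mutant in Cy3. The adipocyte gene Adipoq, for adiponectin, had normalised signals of 86.9 in Glis3zf/zf and 80.7 in WT on the first array and of 91.9 in Glis3zf/zf and 89.6 in WT on the other, of which the offset makes up 50. Adipoq is among the dimmest of the 14. Fabp4, the brightest, had 8228 in Glis3zf/zf and 8826 in WT, and 7363 in Glis3zf/zf and 6194 in WT. Fabp4 makes up most of these sums, and its ratios of -0.10 and 0.25 changed sign with the dye. Neither gene has the highest or lowest ratio of the list. The 7 hepatocyte genes had a median of 0.08 (Alb 0.42, which passed as higher, Fgb -0.02), with sums of 2960 in Glis3zf/zf and 2731 in WT, and of 2621 in Glis3zf/zf and 2564 in WT. The 8 Schwann cell genes had a median of -0.02 (S100b -0.42, which passed as lower, Erbb3 0.05), with sums of 3477 in Glis3zf/zf and 3704 in WT, and of 2950 in Glis3zf/zf and 3096 in WT. These medians of 0.05, 0.08 and -0.02 stand beside -0.08 for the 36 genes. The part of these cell types in the results was not tested.

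Promoter sequences are shown for the genes called lower, since these genes shifted with the same sign on both arrays and SREBP factors act through short elements near the start site. RefSeq promoters of build GRCm38.p6, from 250 bases before to 50 bases after the start, matched 29 of the 36 genes with 39 promoters. Scd1, Scd2, Fads1, Fdps, Fdft1, Sqle and Stard4 were not matched. Each sequence below is the 250 bases before the start site of one gene, read 5′ to 3′ on the strand of the gene. Capitals mark every match, on either strand, to TCACNCCAC, a form of the sterol regulatory element, to the E-box CACGTG, to CCAAT, the box bound by NF-Y, and to GGGCGG, the GC box bound by Sp1, so a match on the opposite strand reads as ATTGG or CCGCCC. The E-box reads the same on both strands, and no matches of different motifs overlap in these sequences. The regions are chr13:119690101-119690350 (plus strand) for Hmgcs1, chr13:8885356-8885605 (plus) for Idi1, chr8:64733579-64733828 (minus) for Sc4mol, chr11:100528001-100528250 (minus) for Acly and chr9:77917115-77917364 (plus) for Elovl5.
Hmgcs1: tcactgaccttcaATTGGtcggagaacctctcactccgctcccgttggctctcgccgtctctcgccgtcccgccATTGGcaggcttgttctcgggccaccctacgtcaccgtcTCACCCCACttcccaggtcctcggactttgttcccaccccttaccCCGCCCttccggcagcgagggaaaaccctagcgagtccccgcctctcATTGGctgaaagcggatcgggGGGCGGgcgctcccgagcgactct
Idi1: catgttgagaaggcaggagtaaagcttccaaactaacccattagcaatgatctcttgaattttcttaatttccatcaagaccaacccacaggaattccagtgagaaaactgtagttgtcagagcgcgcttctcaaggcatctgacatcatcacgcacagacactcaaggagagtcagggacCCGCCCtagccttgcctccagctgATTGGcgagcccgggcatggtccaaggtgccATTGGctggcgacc
Sc4mol: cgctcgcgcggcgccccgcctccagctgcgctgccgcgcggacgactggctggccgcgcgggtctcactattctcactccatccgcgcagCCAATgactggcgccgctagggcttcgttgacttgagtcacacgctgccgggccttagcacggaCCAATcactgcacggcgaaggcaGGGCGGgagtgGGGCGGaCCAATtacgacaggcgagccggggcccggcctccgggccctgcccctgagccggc
Acly: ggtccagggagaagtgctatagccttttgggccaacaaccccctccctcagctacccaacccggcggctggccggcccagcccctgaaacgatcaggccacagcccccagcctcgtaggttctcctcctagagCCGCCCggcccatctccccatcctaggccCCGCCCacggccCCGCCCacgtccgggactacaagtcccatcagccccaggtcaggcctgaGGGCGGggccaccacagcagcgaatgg
Elovl5: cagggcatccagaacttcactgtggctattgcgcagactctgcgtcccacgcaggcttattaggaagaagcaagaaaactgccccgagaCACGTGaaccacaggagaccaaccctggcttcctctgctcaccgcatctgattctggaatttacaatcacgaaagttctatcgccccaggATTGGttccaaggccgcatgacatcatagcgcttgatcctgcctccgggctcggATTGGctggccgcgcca

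The sterol element form was found in 1 of the 39 promoters (2.56%), that of Hmgcs1, where it starts 137 bases before the start site, and it was found in 1.24% of all 32851 promoters of the same length. In Hmgcs1 it stands between a CCAAT box 176 bases and a GC box 92 bases before the start. CCAAT was found in 25 of the 39 promoters (64.1%) and in 37.4% of all promoters, and GGGCGG in 27 (69.2%) and in 35.7%. The E-box was found in 7 promoters (17.9%) of 6 genes, Elovl5 among the genes shown, against 7.15% of all promoters. Idi1 has CCAAT boxes 45 and 14 bases before its start and a GC box at 69, Sc4mol has CCAAT boxes at 160, 96 and 55, and Acly has 4 GC boxes and no CCAAT within the 250 bases shown. Genes that did not pass the small-shift rule hold the same elements, among them Fasn with CCAAT and Mvd with both CCAAT and GGGCGG. A match is a description of letters and not a bound site. The comparison with all promoters was not matched for base composition or for detection in these pools. Genes with several promoters, such as Dhcr7, Insig2 and Srebf1 with 3 each, count more than once. The shares are therefore no test of the set.

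The mevalonate route from acetyl-CoA to farnesyl diphosphate had the lowest median of the role groups. Of its 7 genes 3 (42.9%) passed the small-shift rule, all lower, where 4.24% of detected genes were called lower. Below 0 on both arrays were 4 (57.1%), against 30.5% of detected genes. The median was -0.28, the value of Acat2, whose ratios had opposite signs. With the median over a gene's probes the group median was -0.15, and of the 3 genes only Fdps was still called. Idi1 encodes isopentenyl-diphosphate isomerase, which interconverts the 2 isoprene units that farnesyl diphosphate is built from. Its normalised signal was 363 in Glis3zf/zf and 504 in WT with the mutant in Cy5, and 309 in Glis3zf/zf and 423 in WT with the mutant in Cy3. The ratios were -0.47 and -0.45, a mean of -0.46 or 1.38-fold lower. Idi1 was the lowest gene of the set.

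Hmgcs1 encodes the cytosolic synthase that makes HMG-CoA early in the mevalonate route. Its signal was 1024 in Glis3zf/zf and 1423 in WT with the mutant in Cy5, and 916 in Glis3zf/zf and 1084 in WT with the mutant in Cy3. The ratios were -0.47 and -0.24, a mean of -0.36 or 1.28-fold lower, with the same sign on both arrays but a different size. Fdps encodes farnesyl diphosphate synthase, at the point where sterols and other isoprenoids part. Its signal was 465 in Glis3zf/zf and 604 in WT on the first of these arrays, and 422 in Glis3zf/zf and 528 in WT on the other. The ratios of Fdps were -0.38 and -0.32, a mean of -0.35 or 1.27-fold lower.

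Acat2, the cytosolic thiolase that joins the first 2 acetyl-CoA units, had opposite signs on the arrays. With the mutant in Cy5 its signal was 289 in Glis3zf/zf and 639 in WT, and with the mutant in Cy3 it was 407 in Glis3zf/zf and 273 in WT. The Cy3 channel was the brighter one both times, whichever genotype it held. Its ratios were thus -1.14 and 0.58, and the gap of 1.72 log2 was the 3rd widest among all detected genes, of which 0.0544% differed by 1 log2 or more between the arrays. The mean of -0.28 therefore gives no direction for Acat2. It is also the median of the mevalonate genes, and the median was -0.15 with the mutant in Cy3 alone and -0.38 with the mutant in Cy5 alone. Acat3, a paralog of Acat2 that is outside the set and was looked up after these values were seen, had ratios of -0.52 and 0.19, also of opposite sign. Whether either probe binds the other transcript was not tested.

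The remaining 3 mevalonate genes shifted by less than the rule asks. Pmvk, for phosphomevalonate kinase, had ratios of -0.10 and -0.15. Mvd, for the decarboxylase that makes isopentenyl diphosphate, had 0.09 and 0.08, above 0 on both arrays. Mvk, for mevalonate kinase, had -0.06 and 0.04. By the probes used, the route thus held neighbouring steps with ratios of different sign, Mvd above 0 and Idi1 and Fdps, which act next, below. The Mvd mean of 0.09 is close to the technical SD of 0.079, and the second Idi1 probe also had a mean of 0.09.

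Of the 10 genes from squalene synthesis to cholesterol, 1 passed the small-shift rule, 5 were below 0 and 2 above 0 on both arrays, and the median was -0.07. Sc4mol encodes the methylsterol oxidase that starts removal of the methyl groups at carbon 4 of the sterol ring. Its signal was 621 in Glis3zf/zf and 854 in WT with the mutant in Cy5, and 717 in Glis3zf/zf and 873 in WT with the mutant in Cy3. The ratios were -0.46 and -0.28, a mean of -0.37 or 1.29-fold lower. Dhcr7, the reductase of the last step to cholesterol, was just short of the rule: its signal was 485 in Glis3zf/zf and 555 in WT, and 470 in Glis3zf/zf and 583 in WT with the dyes exchanged, with ratios of -0.19 and -0.31. Sqle, squalene epoxidase and a rate-limiting enzyme of the sterol branch, was likewise short of it with ratios of -0.23 and -0.17, from signals of 768 in Glis3zf/zf and 902 in WT and of 686 in Glis3zf/zf and 773 in WT on the other array.

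The steps on either side of Sc4mol did not share its size. Cyp51, the lanosterol demethylase that acts before it, had a mean of -0.09, and Nsdhl and Hsd17b7, which finish the removal of those methyl groups, had 0.05 and -0.08. Fdft1, squalene synthase, had a mean of 0.09 and was above 0 on both arrays. Lss, which closes the sterol rings, had -0.20 and 0.07, Ebp, the sterol isomerase, had -0.30 and 0.18, and Sc5d, the desaturase before Dhcr7, had -0.08 and 0.02, each changing sign with the dye. Stard4, which carries sterol between membranes, had -0.26 and 0.06. Over all 17 sterol synthesis genes the median was -0.09, with 4 genes lower by the small-shift rule, none higher, and 9 below 0 on both arrays.

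**Figure D2:**
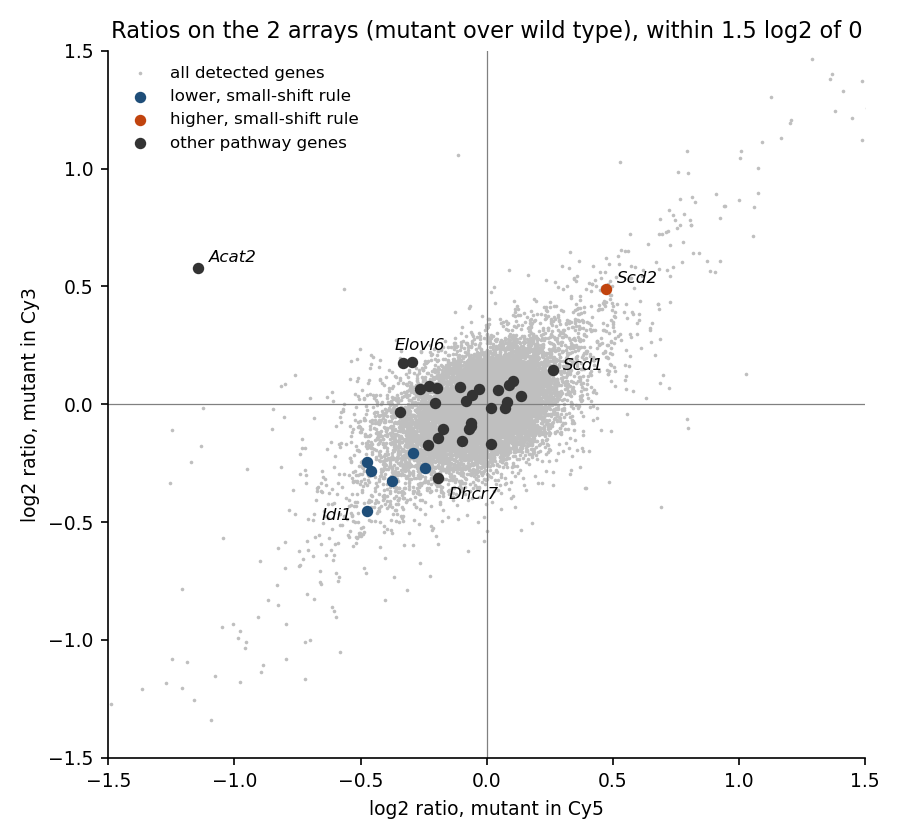
Log2 ratio of mutant over wild type with the mutant in Cy5 (horizontal) and in Cy3 (vertical) for all detected genes within 1.5 log2 of 0 (grey) and for the 36 genes (large points, blue where lower and orange where higher by the small-shift rule). The 6 blue points lie at the lower left within the cloud of all genes, the orange point of Scd2 lies at 0.47 and 0.49, and Acat2 stands far outside the cloud at -1.14 and 0.58.

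The fatty acid core of 6 genes had a median of -0.09, with 3 genes below 0 and 2 above 0 on both arrays. Acly encodes ATP citrate lyase, which supplies cytosolic acetyl-CoA to both routes, and it was the 1 of the 6 that passed the small-shift rule. Its signal was 357 in Glis3zf/zf and 423 in WT with the mutant in Cy5, and 288 in Glis3zf/zf and 348 in WT with the mutant in Cy3. The ratios were -0.25 and -0.27, a mean of -0.26 or 1.20-fold lower. On each array the mutant was the lower one, while across arrays its value of 357 lay above the wild-type value of 348. Fasn, fatty acid synthase, had signals of 2712 in Glis3zf/zf and 3104 in WT, and of 2245 in Glis3zf/zf and 2476 in WT on the other array. Its ratios of -0.19 and -0.14 were below 0 on both arrays and short of the rule.

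The other core genes differed in sign. Thrsp, the Spot 14 gene, whose product is tied to lipogenesis in liver and fat, had signals of 121 in Glis3zf/zf and 153 in WT with the mutant in Cy5, and of 128 in Glis3zf/zf and 131 in WT with the mutant in Cy3. Its ratios of -0.34 and -0.03 make it a shift seen on 1 array. Acaca, the carboxylase that makes malonyl-CoA for synthesis, had 0.10 on each array, and Acacb, the isoform linked to control of fatty acid oxidation, had -0.10 and 0.07. Me1, the malic enzyme that supplies NADPH, had 0.05 and 0.06. Acly and Acaca, which act in turn on the same carbon, were thus on opposite sides of 0 on both arrays.

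Among 7 desaturases and elongases, Scd2 was higher and Elovl5 was lower, and the median was 0.00. Scd2 encodes a stearoyl-CoA desaturase, which makes monounsaturated fatty acids. Its normalised signal was 2337 in Glis3zf/zf and 1682 in WT with the mutant in Cy5, and 2046 in Glis3zf/zf and 1459 in WT with the mutant in Cy3. The ratios were 0.47 and 0.49, a mean of 0.48 or 1.40-fold higher, with nearly the same value on both arrays. It had the largest mean ratio of the set in size.

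Scd1, the paralog of Scd2 that dominates in adult liver and fat, had signals of 523 in Glis3zf/zf and 435 in WT, and of 368 in Glis3zf/zf and 332 in WT with the dyes exchanged. Its ratios of 0.26 and 0.15 were above 0 on both arrays and passed the rule on only the first. The files place both probes on chromosome 19, that of Scd2 from 43850941 to 43851000 and that of Scd1 from 43939304 to 43939363. The 2 other desaturase genes of this family, outside the set, had ratios of 0.11 and 0.12 (Scd3) and of 0.05 and 0.10 (Scd4). So 4 of 4 were above 0 on both arrays, where 32.5% of detected genes were. Of the 4, 1 passed the rule as higher, where 2.69% of detected genes did. The means of Scd3 and Scd4, 0.11 and 0.08, stand beside a technical SD of 0.079. Related desaturase transcripts may share probe signal, which was not tested.

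Elovl5, the elongase of polyunsaturated fatty acids, was lower. Its signal was 836 in Glis3zf/zf and 1023 in WT with the mutant in Cy5, and 757 in Glis3zf/zf and 875 in WT with the mutant in Cy3. The ratios were -0.29 and -0.21, a mean of -0.25 or 1.19-fold lower, and close to the threshold on the second array. Its second probe had -0.13 and -0.14. Fads1 and Fads2, the delta-5 and delta-6 desaturases of the same polyunsaturated route, had 0.02 and -0.02 and -0.23 and 0.08. Elovl6, which extends palmitate, had -0.33 and 0.18, and Elovl1, an elongase of very long chains, had 0.07 and -0.02, so 4 of the 7 genes of this group changed sign with the dye.

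**Figure D3:**
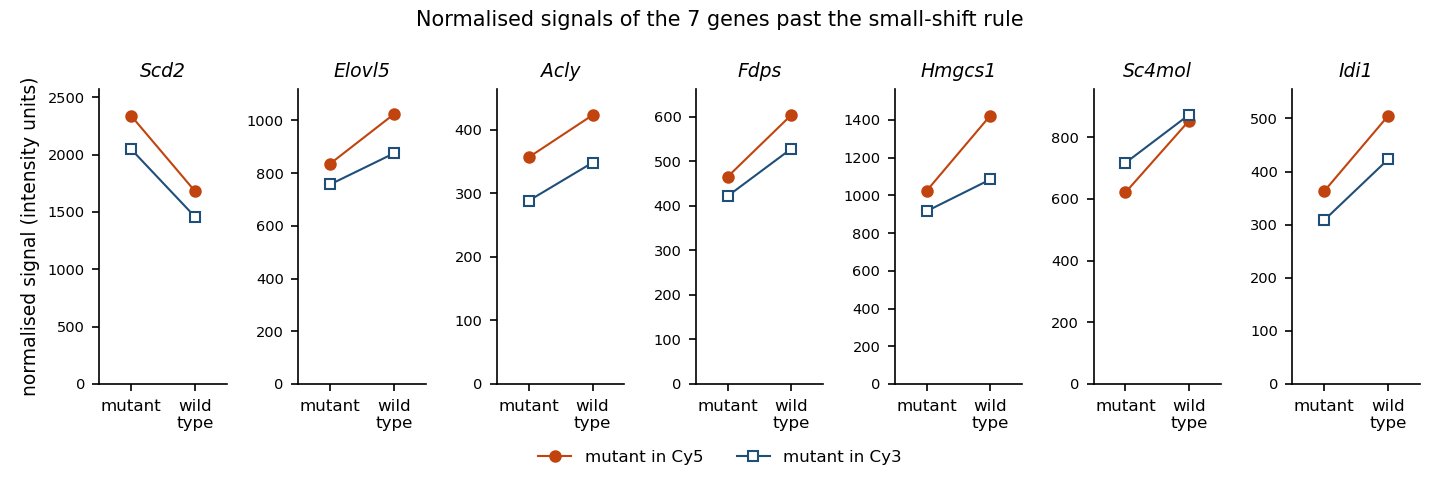
Normalised signal in intensity units (linear axes from 0, with a range of their own for each gene) in the mutant and the wild type for the 7 genes past the small-shift rule, with a line for each array. The 2 lines slope the same way in each of the 7 genes, down to the wild type for Scd2 and up to it for the other 6.

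None of the 5 genes of SREBP control passed the small-shift rule, and their median was -0.08. Srebf1, which encodes SREBP-1, had signals of 1480 in Glis3zf/zf and 1668 in WT with the mutant in Cy5, and of 1257 in Glis3zf/zf and 1351 in WT with the mutant in Cy3. Its ratios of -0.17 and -0.10 were below 0 on both arrays. Scap, the escort of the SREBP factors, had -0.06 and -0.08. Srebf2, for the factor that chiefly drives sterol genes, had 0.02 and -0.17 by the probe used, and the retention genes Insig1 and Insig2 had -0.03 and 0.07 and -0.21 and 0.01, each of the 3 with opposite signs.

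Probes of the same gene disagreed for some of the genes called lower. Of the 16 genes with over 1 probe, 2 had probes whose mean ratios differed by over 0.3 log2, Idi1 and Hmgcs1, and 4 by over 0.2, with Dhcr7 and Nsdhl added. For Idi1 the second probe had signals of 154 in Glis3zf/zf and 146 in WT and of 176 in Glis3zf/zf and 165 in WT, with a mean ratio of 0.09 against -0.46. For Hmgcs1 it had 148 in Glis3zf/zf and 135 in WT and 133 in both, with a mean ratio of 0.07 against -0.36. For Dhcr7 it had 206 in Glis3zf/zf and 204 in WT and 175 in both, with 0.01 against -0.25. In these 3 genes the second probe was dimmer, at signals of 133 to 206, and had a ratio near 0. The 3 probes of Nsdhl ran from -0.04 to 0.16. With the median over probes in place of the brightest probe, Acly, Fdps and Sc4mol passed the small-shift rule and Idi1, Hmgcs1 and Elovl5 did not.

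Placement of the probes limits 2 of these genes further. The files give no genome build and no exon or UTR annotation for a probe. They place both Idi1 probes on chromosome 2, the one used from 53626704 to 53626763 and the other from 53628695 to 53628754, where RefSeq places the gene on chromosome 13. The probes carry the Idi1 name and a current Idi1 accession in the files, and whether they also read a related sequence elsewhere was not tested. The Hmgcs1 probes lie on unplaced sequence assigned to chromosome 13, from 8845046 to 8845105 and from 8847906 to 8847965. The probes of Fdps (chromosome 3, 88838755 to 88838895), Sc4mol (chromosome 8, 63787359 to 63787418), Acly (chromosome 11, 100298291 to 100298349) and Elovl5 (chromosome 9, 78151693 to 78151752) lie on the chromosome of their gene. Fdps and Sc4mol are read by 1 probe each, as is Acly.

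A further 9 probes carry no symbol in the files but are described there as products of genes of these routes. They were looked for after the values of the named probes were seen, and they entered none of the counts above. They stand for 7 genes, and 3 of the 9 were lower and none higher by the small-shift rule. A probe described as a fragment of SREBP-2 had signals of 1253 in Glis3zf/zf and 1683 in WT with the mutant in Cy5, and of 1058 in Glis3zf/zf and 1459 in WT with the mutant in Cy3. Its ratios were -0.43 and -0.46, where the used Srebf2 probe, at signals of 136 to 197, had a mean of -0.08. It lies on chromosome 15 from 82255983 to 82256042, and the used probe lies from 82255053 to 82255112. A second described Srebf2 probe had -0.30 and -0.17.

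Another of the described probes called lower is a clone of Acacb. It had signals of 621 in Glis3zf/zf and 734 in WT, and of 522 in Glis3zf/zf and 691 in WT, with ratios of -0.24 and -0.40, where the used Acacb probe, at 127 to 163, had a mean of -0.02. With the described probes added under the same brightest-probe rule, 8 of the 36 genes were lower (22.2%), Acacb and Srebf2 with the 6 above. Unnamed probes were searched only for genes of these routes. The share of all detected genes, 4.26%, had no such second look, so the 2 shares are not a like comparison.

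**Figure D4:**
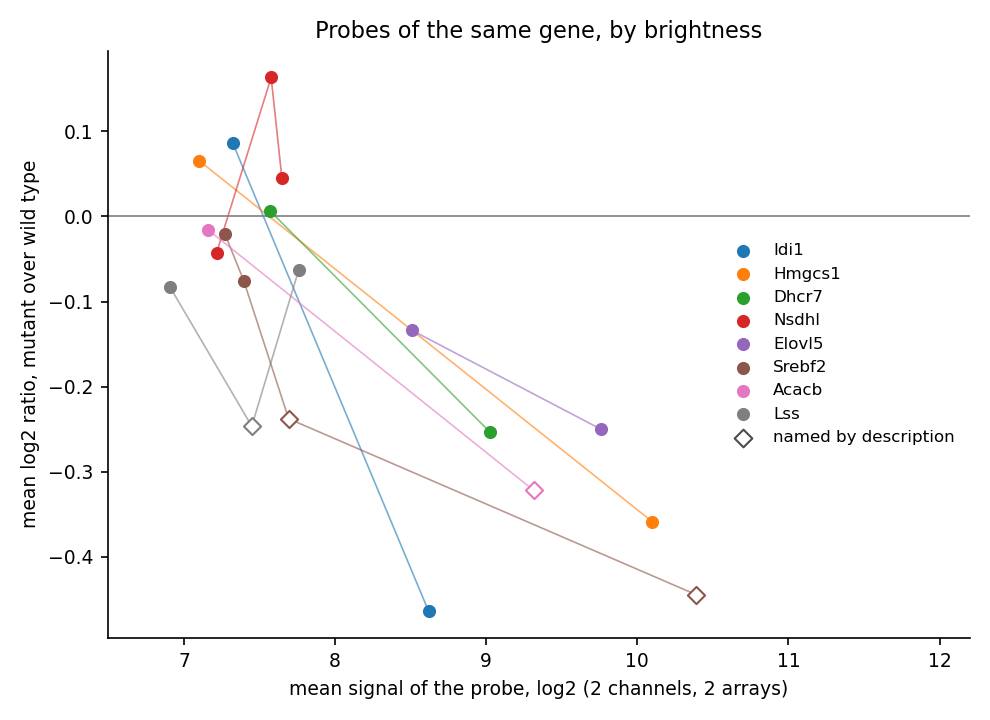
Mean log2 ratio of mutant over wild type against the mean log2 normalised signal of each probe, for 8 genes with several probes, the probes of a gene joined by a line. Diamonds are probes named only by their description; in Idi1, Hmgcs1, Dhcr7, Srebf2 and Acacb the brightest probe has the lowest ratio and the dimmer probes lie near 0 or above it, apart from the second described Srebf2 probe.

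Other genes of lipid metabolism, in 6 lists, were read for comparison. Of 67 measured genes 1 was lower and 2 were higher by the small-shift rule, and the median was 0.01. Their 1.49% lower and 2.99% higher stand beside 16.7% and 2.78% in the 36 genes and 4.24% and 2.69% in all detected genes. The 6 other genes of sterol and isoprenoid synthesis had a median of -0.05, and none passed the small-shift rule. Of 13 genes of sterol uptake, storage and efflux, Npc2, which hands cholesterol on inside lysosomes, was higher at 0.36 on each array, and the lowest was Stard3, a sterol carrier of late endosomes, at -0.12.

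The lists nearest to fatty acid synthesis had medians on both sides of 0. The 12 other genes of elongation and desaturation had a median of 0.07, between Fads3 at -0.24 and Tecr, for an enzyme of the elongation cycle, at 0.23. The 8 genes of acetyl-CoA and NADPH supply had a median of 0.06. Among them Mlycd, for the decarboxylase that breaks down malonyl-CoA, was lower with -0.20 and -0.33, and Me3, a malic enzyme of mitochondria, was highest at 0.19. The 15 regulators of lipogenesis had a median of -0.08, none passed the small-shift rule, Usf2 was highest at 0.09, and Mlxipl had -0.20 and -0.17. The 13 genes of triglyceride synthesis and storage had a median of 0.05, and Plin2, which coats lipid droplets, was higher with 0.35 and 0.31, while Acsl4, an acyl-CoA synthetase, was lowest at -0.21.

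**Figure D5:**
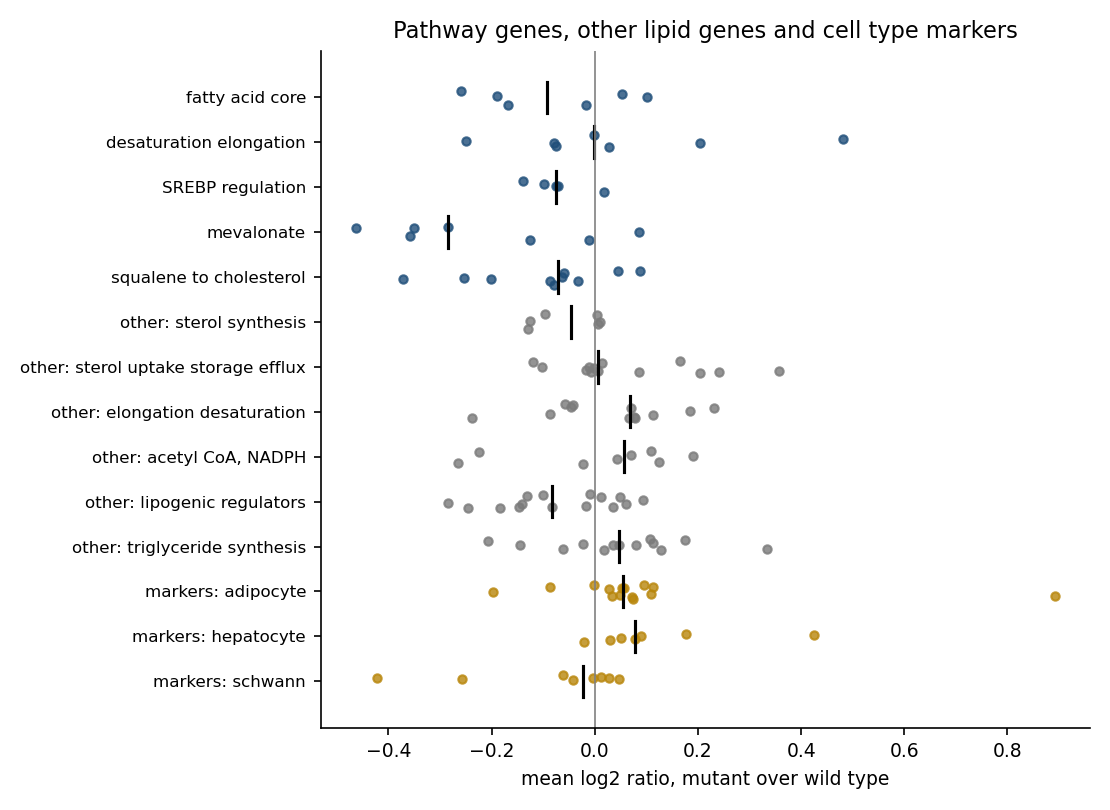
Mean log2 ratio of mutant over wild type for each measured gene of the 5 larger role groups (blue), of 6 lists of other lipid genes (grey) and of 3 lists of cell type markers (gold), each with its median as a black bar. The mevalonate genes have the lowest median, at -0.28, and the medians of the other lists lie between -0.09 and 0.08.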

How the data were processed

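RNA was measured on 2 two-colour arrays of the same pair of pools, with total RNA of 500 ng amplified and 750 ng of each labelled cRNA hybridised for 17 hours, per the labels. Per the file headers, the scanner files hold each spot's mean and local background intensity on a linear scale, not normalised, and the software's dye-normalised log10 ratio of Cy5 over Cy3 with a p-value from its error model of 1 array, which is no test between genotypes. Feature Extraction is version 7.5 per the submitters' processing notes and 8.5.1.1 per the file headers, and which made the values is not settled. The authors' deposited table holds log2 ratios. Set against the scanner files, it matches the software's ratio, turned to mutant over WT, to within 0.002 log2 at 99.985% and 99.983% of probes, with column medians of 0, which settles its scale, centring and direction.

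Intensities were corrected with limma 3.58.1 in R 4.3.3 (with version 1.17.8 of data.table) by normexp with an offset of 50, which shrinks the folds of dim probes, and normalised by loess within each array, control spots at weight 0. Loess assumes that most genes at any brightness are unchanged. Outlier spots were left out, 15 and 53 on the arrays, spots of a probe were averaged, and all ratios were set as mutant over WT. Each array has 41534 gene spots, the median mean signal per channel was 207 to 265.0, the local background 46.5 to 50, and 94.0% to 96.8% of spots were well above it. The number of arrays limits the precision. Later steps used Python 3.11.15, numpy 2.4.6, pandas 2.3.3 and matplotlib 3.10.9, and the steps were tested on simulated data.

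Of 41174 probes, 22072 were named by accession through RefSeq's GRCm38.p6 gene table, 135 by a second RefSeq accession in its row, 657 by symbol and 547 by an older symbol, and 17763 have no name here. Each gene takes its brightest unsaturated probe, or its brightest where all are saturated, and counts as detected where well above background on both arrays in at least 1 genotype. Genes were named in the text by rule: each member with its ratio, the 10 largest and those past a rule with both arrays, members whose probes differ by over 0.3 log2, and of other lists the highest, the lowest and those past a rule; some genes these rules name are not reported here. The members, lists and rules were chosen with earlier results of these data known. Alternatives changed the background correction, the normalisation, the probe of a gene, the dye orientation, the filter on dim probes and the threshold.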

Additional observations from a re-analysis of the deposited data

How the results depend on the processing

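Each genotype is 1 pool, so these alternatives test the processing and not the animals. No paired analysis was possible because each genotype has 1 sample and the arrays are a dye swap of the same pools. The 6 genes called lower were called under every alternative except the median over probes and the threshold of 0.3. Scd2 was called higher under every alternative. Some of these alternatives could not undo a call. A gene past the small-shift rule on both arrays also passes it on each array alone. The cut on brightness was set at the dimmest called gene. All 56 probes were well above background in both genotypes, and no described probe stands for a called gene. With the median over probes 3 genes were lower (Acly, Fdps, Sc4mol) and the mevalonate median was -0.15, where Idi1 averaged -0.19, Hmgcs1 -0.15 and Dhcr7 -0.12 over their probes. At a threshold of 0.3 it was 2 (Fdps, Idi1), with 227 higher and 311 lower among all genes. With the mutant in Cy5 alone 14 were lower and 2 higher (Scd1 and Scd2), Acat2 at -1.14 was the 1 gene past the 2-fold rule, the mevalonate median was -0.38, and all genes had 1201 higher and 1909 lower, where a single array must pass instead of both. With the mutant in Cy3 alone 7 were lower and 2 higher (Acat2 at 0.58 and Scd2), the mevalonate median was -0.15, the fatty acid core median 0.013, and all genes had 903 higher and 1300 lower. The software's ratios and the deposited table that holds them gave 2 higher (Scd1 and Scd2), Idi1 at -0.54, and 744 and 746 higher by the small-shift rule and 44 lower by the 2-fold rule among all genes. An offset of 0 gave 677 and 42, and median centring gave 1056 lower by the small-shift rule; the cause was not tested. Both alternatives added Dhcr7 to the genes called lower, as did the software's ratios, and median centring added Sqle. Adding described probes and keeping only bright genes were alternatives chosen after seeing the data. Under the first the fatty acid core median was -0.18, and in the second 20 genes were higher by the 2-fold rule and 295 by the small-shift rule. The counts of members did not move with the filters on dim probes.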

Other observations

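The 5 described probes not yet given were short of the small-shift rule on at least 1 array. The Lss clone had -0.32 and -0.17, and the Fasn clone -0.13 and 0.05, at signals of 168 in Glis3zf/zf and 185 in WT and of 153 in Glis3zf/zf and 147 in WT. The Me1 transcript had 0.11 and 0.17, and the 2 Acaca probes had 0.11 and 0.00 and -0.03 and 0.10. Outside the set and past no rule, Lipa, the lysosomal lipase that frees cholesterol from its esters, had 0.32 and 0.16, and Abca1, the cholesterol exporter, 0.32 and 0.08, while Npc1, the partner of Npc2, had -0.10 on each array; these were named after their values were seen.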
